A study of Canis lupus familiaris with 32 samples.

Results

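The cytosolic ribosomal proteins were represented by 60 genes among the 5246 with a symbol on the array, and by 141 of its 22176 probes. A gene was taken in when its platform symbol began with RPL and a digit, RPLP, RPS and a digit, or RPSA, and when it was no ribosomal S6 kinase gene (RPS6K). Of the 60 genes, 31 code for proteins of the large (60S) subunit and 23 for proteins of the small (40S) subunit. A further 4 genes are paralogs of subunit genes (RPL22L1, RPL26L1, RPL36AL and RPS27L), RPL18P has a symbol of the form given to pseudogenes, and RPS19BP1 codes for a protein that binds RPS19 and is not itself part of the subunit. The 54 subunit genes are treated below as the set, and the other 6 are described on their own. Each gene was read as the mean of its probes, of which 21 genes had 1 and 39 had 2 or more, up to 7 for RPL10A, RPL17 and RPS3. All 60 genes had a value in every tumor.

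Ribosomal proteins assemble with the ribosomal RNAs into the subunits that translate messenger RNA, and they are made in matched amounts because each ribosome holds nearly all of them. Their messengers are among the most abundant of a growing cell and share a tract of pyrimidines at the start, by which translation of the whole set is governed through mTOR. Several of them are used as reference genes in quantitative PCR for their even expression, RPS19 in this study.

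The tumors were 32 primary canine osteosarcomas, malignant bone tumors taken at surgery from dogs that had had no earlier therapy. The short survivors (SS) were 16 dogs that lived less than 6 months and the long survivors (LS) 16 dogs that lived 6 months or longer. The dogs differed in breed, age and tumor site, which the sample labels do not give and which were not used here. Labeled RNA of each whole tumor was hybridized on 1 dual-color cDNA array against a pool made from all 32 tumors, with the tumor in Cy5 on 8 arrays and in Cy3 on 8 arrays of each survival group.

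A value is a log2 ratio of tumor over pool, so that 0 stands for the level in the pool and the absolute level of a gene is not known. Since the pool holds all 32 tumors, a gene that is high in every one of them also reads near 0. Array medians lay between -0.028 and 0.024, and the SD of an array's probes was 0.47 to 0.76. The direction is that of the study's methods, in which the data of dye-swapped arrays were switched to tumor over pool. The per-probe means of the Cy5 and Cy3 arrays correlated at -0.66, and differences are therefore given over all arrays and, where it matters, within each orientation of the dyes. In these bulk samples fewer cells of a kind and less RNA per cell cannot be told apart. Markers of bone, cartilage, blood, vessel and muscle cells were measured only in part, from 1 of 11 for red cells to 14 of 19 for skeletal muscle, and ratios to a pool of the same tumors cannot show whether a cell type was present.

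**Figure D1:**
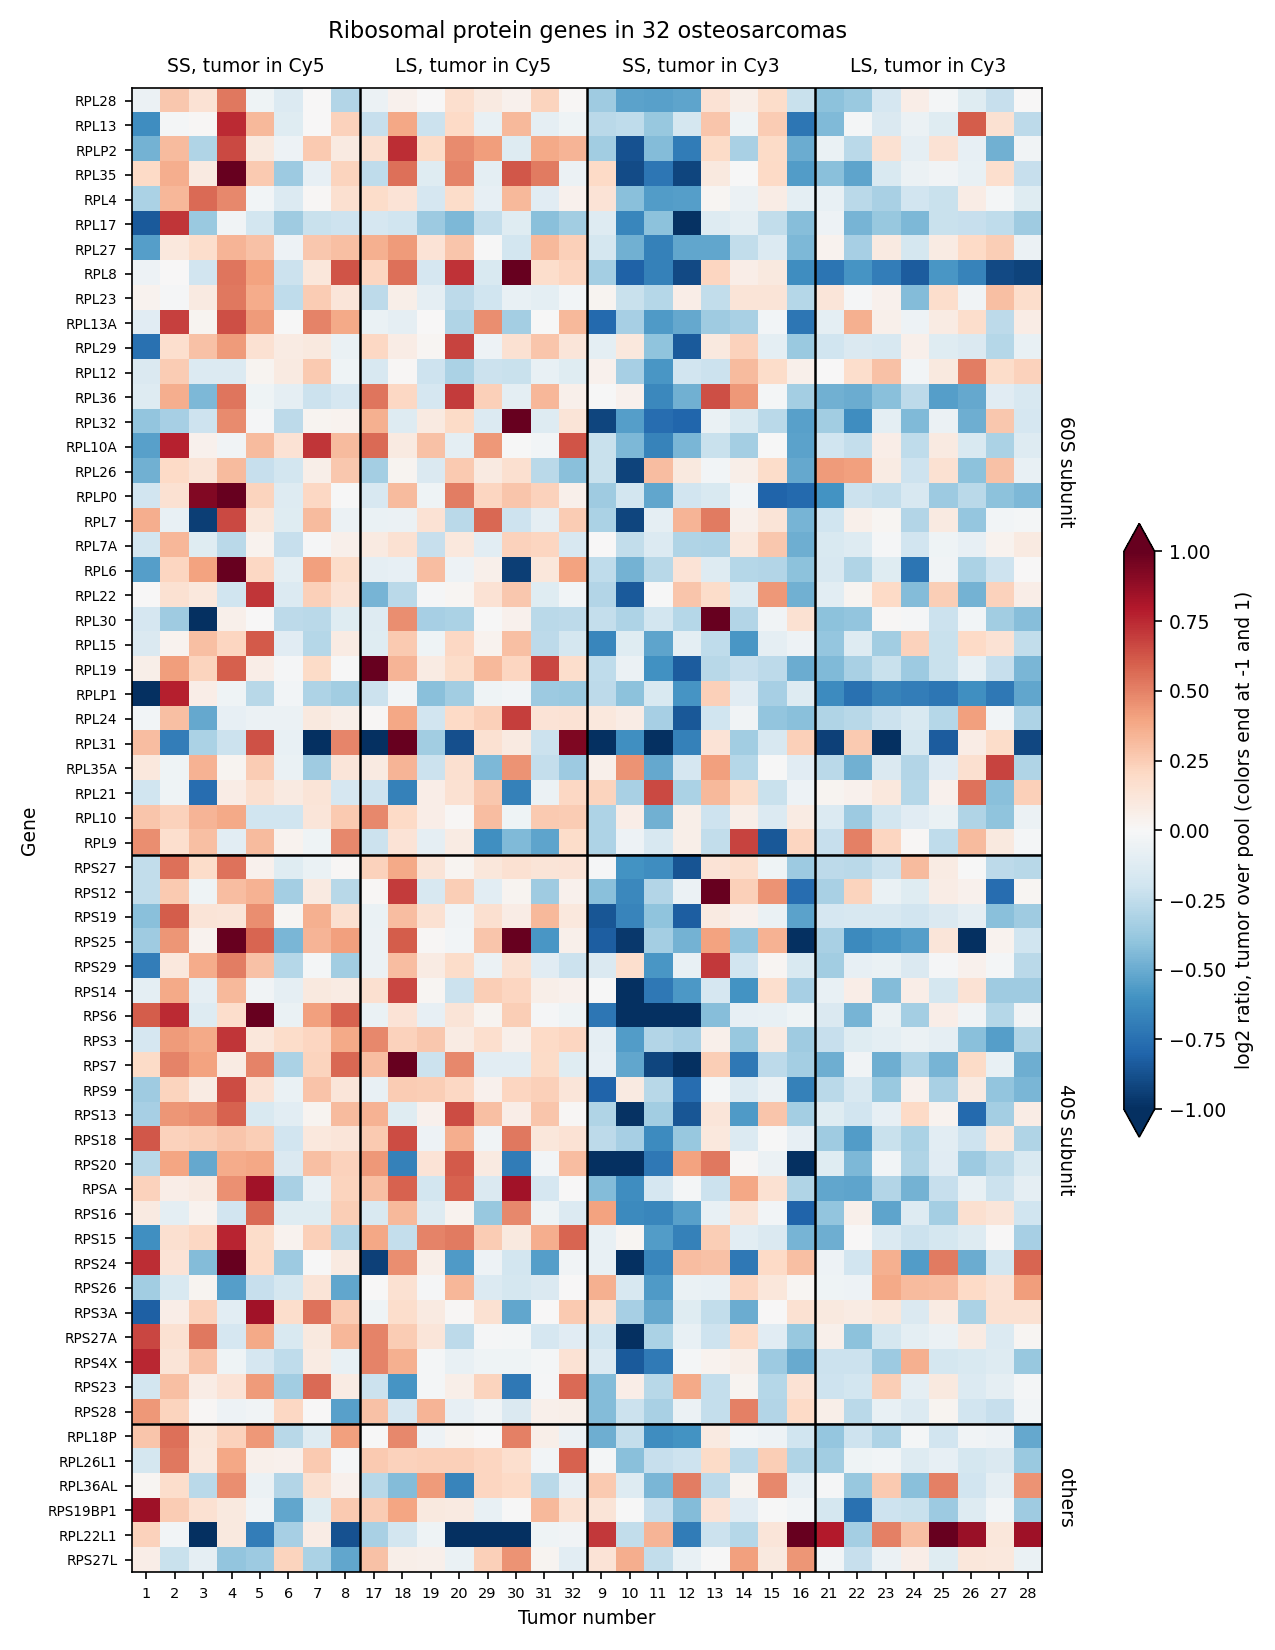
Log2 ratio of tumor over pool for the 60 ribosomal protein genes (rows, within each subunit ordered from the highest to the lowest correlation with the other subunit genes) in the 32 tumors (columns, split by survival group and by the dye of the tumor). Colors end at -1 and 1; the tumors in Cy5 are mostly red and those in Cy3 mostly blue, and within the SS tumors in Cy3 numbers 10, 11, 12 and 16 are low over most rows.

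The question of the study was which genes differ between the tumors of short and of long survivors. For the ribosomal proteins the differences were small. The differences of the 60 genes, SS minus LS, ran from -0.30 for RPL32 to 0.25 for RPLP1, and 46 of the 60 lay within 0.1 of 0. How many of all features lay as close to 0 was not counted, so the small size is not shown to be particular to these genes. Averaging probes of opposite sign also brings a gene nearer to 0, as in RPS28, with probes at -0.20 and 0.19. Limma called 0 of the 60 at an adjusted p under 0.10, and of all 19728 features (5246 genes and 14482 probes without a symbol) it called 0, a share of 0%. At an unadjusted p under 0.05 there were 0 members higher and 2 lower in SS, against 3.34% and 3.56% of all features (6.89% together). A rebuilt Significance Analysis of Microarrays (SAM), on probe-averaged features, called 0 members and 7 higher and 2 lower features. The study's own SAM, at the same false discovery rate, reported more genes, all of them higher in SS, and the rebuilt SAM did not reproduce that result. The median difference of the members was -0.023, with 23 above and 37 below 0, beside a median of -0.0027 over all features. Single tumors decided that small value, which was 0.0017 without SS tumor 10 and -0.039 without SS tumor 4.

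The standard error of a difference had a median of 0.12, and for 54 of the 60 genes the whole 95% interval lay within a 1.4-fold change either way (0.49 on the log2 scale). The share of all features within that limit was not counted. The largest difference, that of RPL32, was 1.23-fold. In a model with the orientation as a block the interval lay within that limit for 57 genes, and again 0 members were called while 69 features were (0.35%). The p-values measure the spread between dogs, 1 array each, and without the block that spread also holds the difference between the dye orientations. For RPL8 the standard error was 0.20 without the block and 0.14 with it.

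**Figure D2:**
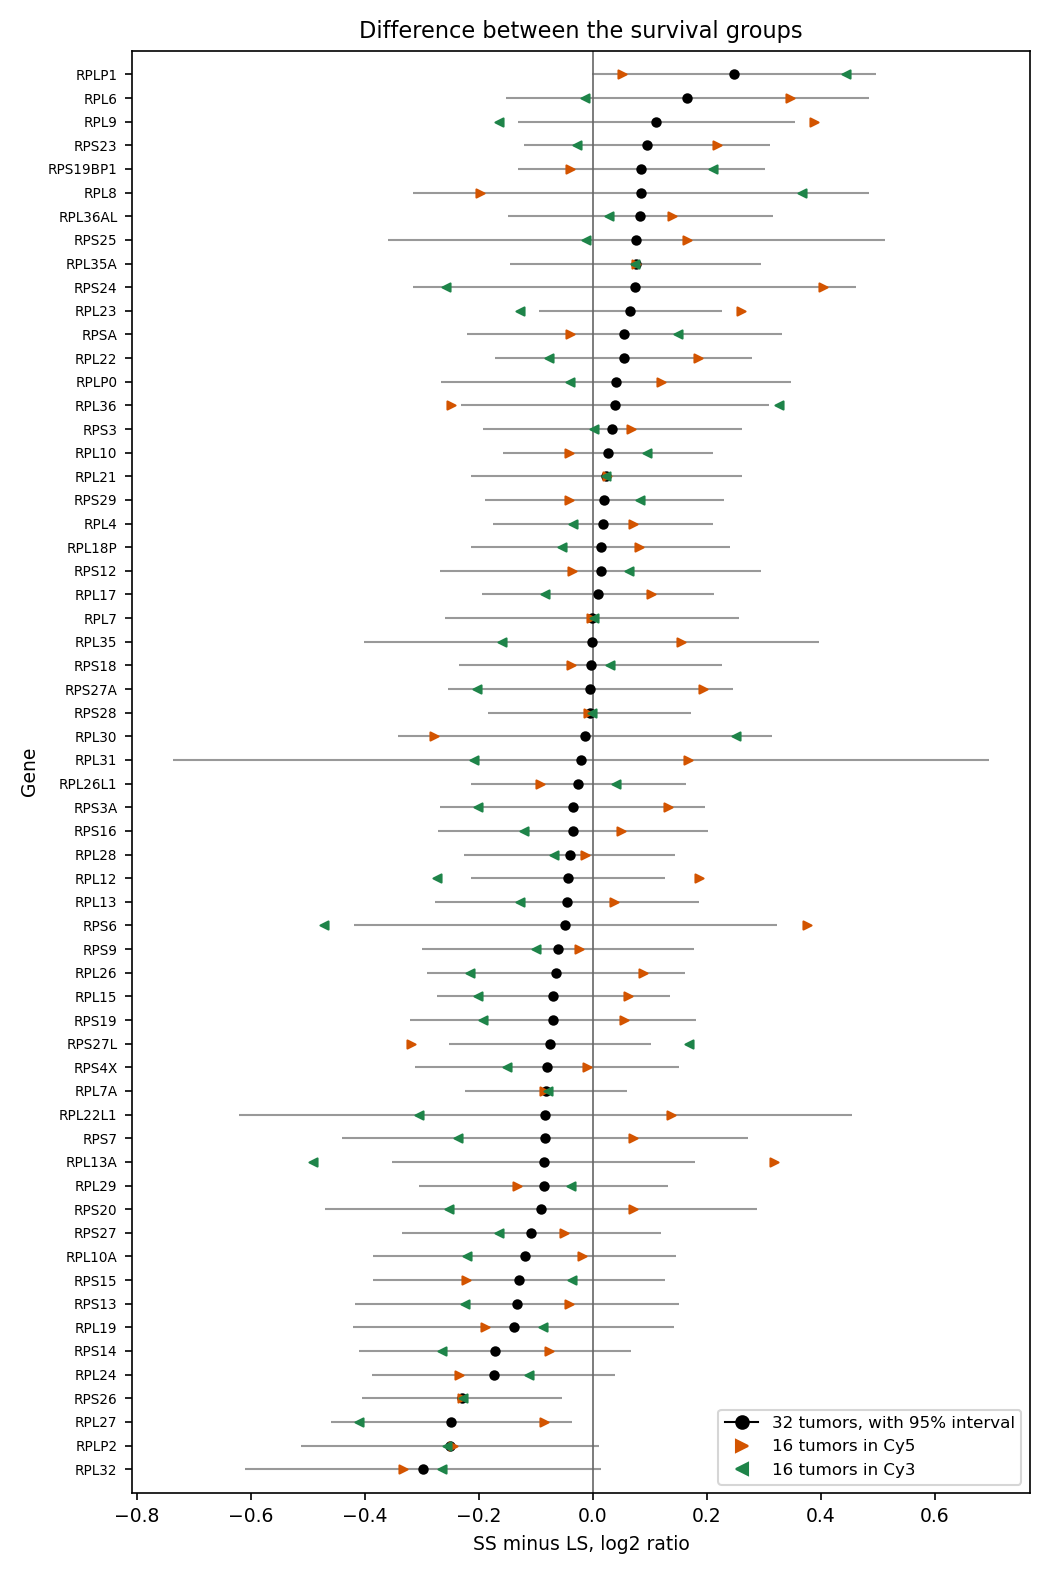
Difference SS minus LS in log2 ratio for each of the 60 genes, from all 32 tumors with its 95% interval (black) and from the 16 tumors in Cy5 (orange) and the 16 in Cy3 (green). The intervals of 58 genes cross 0, and for 38 of the 60 genes the orange and the green points lie on opposite sides of it.

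The lower values in SS with the smallest p came from both subunits. RPS26, a 40S protein at the site where messenger RNA leaves the ribosome, ranged from -0.57 to 0.36 with a median of -0.11 in SS. In LS it ranged from -0.17 to 0.42 with a median of 0.074. The groups overlapped widely, but 12 of the 16 SS tumors lay below the LS mean. The difference was -0.23 ± 0.086 (SE, 95% interval -0.40 to -0.054, limma, adjusted p = 0.615), and it was -0.23 in Cy5 and -0.23 in Cy3. The 2 probes of RPS26 did not share this evenness. In 1 probe the difference was -0.39 in Cy5 and -0.10 in Cy3, and in the other -0.071 and -0.36. RPL27, of the 60S subunit, differed by -0.25 ± 0.10 (SE, 95% interval -0.46 to -0.036, limma, adjusted p = 0.645). Its SS tumors ranged from -0.67 to 0.34 with a median of -0.16 and its LS tumors from -0.33 to 0.43 with a median of 0.11. In the highest tumors the groups reached like values, and the SS group went further down. These 2 were the members with an unadjusted p under 0.05.

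RPL32, RPL24 and RPS14 followed. RPL32, a 60S protein, differed by -0.30 ± 0.15 (SE, 95% interval -0.61 to 0.014), and 13 of the 16 SS tumors lay below the LS mean. LS tumor 30 stood at 1.62, far above the LS median of -0.11, and without it the difference was -0.19. RPL24, which forms a bridge between the subunits, differed by -0.17 ± 0.10 (SE, 95% interval -0.39 to 0.04). RPS14, the 40S protein whose gene is lost in the 5q deletion of human myelodysplasia, differed by -0.17 ± 0.12 (SE, 95% interval -0.41 to 0.068), and its lowest value, -1.01, was in SS tumor 10. Adjusted p-values by limma were 0.737, 0.786 and 0.807.

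The stalk proteins did not share a direction. The stalk of the 60S subunit, built of RPLP0, RPLP1 and RPLP2, recruits the elongation factors. RPLP1 had the highest difference of all members, 0.25 ± 0.12 (SE, 95% interval -0.00056 to 0.50, limma, adjusted p = 0.723), and the LS mean was exceeded in 14 of the 16 SS tumors. Its values ranged from -1.25 to 0.78 with a median of -0.21 in SS and from -0.75 to -0.028 with a median of -0.47 in LS. RPLP2 differed the other way, by -0.25 ± 0.13 (SE, 95% interval -0.51 to 0.011, limma, adjusted p = 0.737), with -0.24 in Cy5 and -0.26 in Cy3. RPLP0 differed by 0.041 ± 0.15 (SE, 95% interval -0.27 to 0.35). A test between the 3 genes was not run.

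The other members on the higher side in SS had differences that lay within their intervals around 0. RPL6 differed by 0.17 ± 0.16 (SE, 95% interval -0.15 to 0.48) and RPL9 by 0.11 ± 0.12 (SE, 95% interval -0.13 to 0.36), both of the 60S subunit. RPS23, a 40S protein of the decoding center, differed by 0.095 ± 0.11 (SE, 95% interval -0.12 to 0.31), and its 3 probes by -0.014, 0.003 and 0.30. RPL23, a 60S protein that also binds MDM2, differed by 0.066 ± 0.079 (SE, 95% interval -0.094 to 0.23). RPS19BP1, the binding partner of RPS19, differed by 0.086 ± 0.11 (SE, 95% interval -0.13 to 0.30). For these 5 genes the adjusted p by limma lay between 0.869 and 0.898. In RPL6 the highest value was 1.71, in SS tumor 4, against an SS median of -0.12, and without that tumor the difference was 0.054. A single tumor also moved the others by more than 1.5 times. The lowest such values were 0.071 for RPL9 without SS tumor 14, 0.052 for RPS23 without LS tumor 30, 0.033 for RPL23 without SS tumor 4 and 0.031 for RPS19BP1 without SS tumor 1.

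RPS19, the 40S protein most often mutated in Diamond-Blackfan anemia and a reference gene here, ranged from -0.85 to 0.61 with a median of 0.03 in SS and from -0.42 to 0.32 with a median of -0.079 in LS. The groups overlapped, and the SS tumors reached further both ways. The difference was -0.069 ± 0.12 (SE, 95% interval -0.32 to 0.18, limma, adjusted p = 0.923), and it was 0.054 in Cy5 and -0.19 in Cy3. With 1 tumor left out it ran from -0.12 without SS tumor 2 to -0.02 without SS tumor 9. The SD was 0.45 over the SS tumors and 0.21 over the LS tumors. The paralogs RPL22L1, RPL26L1, RPL36AL and RPS27L differed by -0.083, -0.026, 0.083 and -0.075, and RPL18P by 0.014. Paralogs and pseudogene copies are close in sequence to their subunit genes, and how far cDNA probes told them apart was not tested.

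Within the orientations the members often disagreed in sign. Of the 60 members, 22 had the same sign in both, 5 higher and 17 lower in SS, against 46.9% of all features. Among the 16 tumors in Cy5 limma called 0 members and 1250 features (6.34%). Among the 16 in Cy3 it called 3 members and 2022 features (10.2%), 1 member higher (features: 2.85%) and 2 lower (7.4%). The 3 were RPLP1, higher in SS by 0.44 ± 0.093 (SE, limma, adjusted p = 0.0219), RPL13A, lower by -0.49 ± 0.11 (adjusted p = 0.0242), and RPL27, lower by -0.41 ± 0.097 (adjusted p = 0.0324). In Cy3 the 8 LS values of RPLP1 lay together, between -0.75 and -0.52, and the 8 SS values between -0.59 and 0.24. In Cy5 the RPLP1 difference was 0.051, with SS values from -1.25 in tumor 1 to 0.78 in tumor 2. The difference between the orientations over all other features, with 1 as its average size, was present at 0.45 to 0.86 in the SS and 0.97 to 1.29 in the LS tumors in Cy5, which did not overlap, and at 0.21 to 1.04 and 0.85 to 1.44 in those in Cy3. Its part in the differences within an orientation was not tested.

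The ribosomal proteins read higher on most arrays with the tumor in Cy5. The mean of the tumors in Cy5 was higher than that of the tumors in Cy3 for 52 of the 60 genes, with a median difference of 0.31 beside 0.0012 over all features. Limma, with the survival group in the model, called 37 members higher in Cy5 (all features: 31.8%) and 2 lower (33.8%). By subunit the higher calls were 18 of 31 genes for 60S and 16 of 23 for 40S. The same RNA species are read in both orientations and each holds 8 SS and 8 LS tumors, so that dye and the particular 16 tumors cannot be told apart within a gene.

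**Figure D3:**
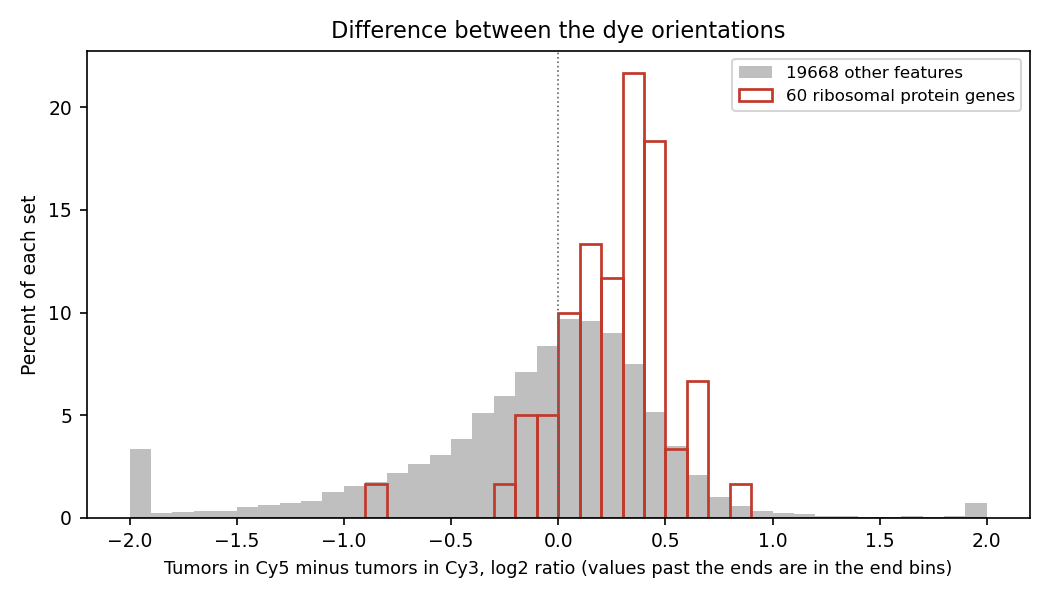
Distribution of the difference between tumors in Cy5 and tumors in Cy3, in log2 ratio, for the 60 ribosomal protein genes (red outline) and all other features (gray), as a percent of each set per bin of 0.1, with the values beyond the axis in the end bins. The features spread to both sides of 0, while 52 of the 60 members lie above it.

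RPL19, a 60S protein at a bridge to the small subunit, was the member with the smallest p. It ranged in Cy5 from -0.0092 to 1.06 with a median of 0.21, and in Cy3 from -0.83 to -0.057 with a median of -0.27. It was the 1 member in which the orientations did not overlap, as they did not for 10.2% of all features. The difference was 0.62 ± 0.084 (SE, limma, adjusted p = 1.46e-07). RPS3, at the entry of the messenger channel, differed by 0.48 ± 0.072 (SE), and RPS18, of the head of the 40S subunit, by 0.46 ± 0.08 (SE). RPL8, which lies near the peptidyl transferase center, had the highest difference of the members, 0.81 ± 0.14 (SE). RPLP0 differed by 0.59 ± 0.11 (SE) and RPS19 by 0.46 ± 0.093 (SE). In these 6 the adjusted p by limma was at most 8.24e-05.

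The exceptions were few. RPL22L1, the paralog of RPL22, was lower in Cy5 by -0.84 ± 0.22 (SE, limma, adjusted p = 0.00163), and RPS26 by -0.21 ± 0.078 (adjusted p = 0.0217). After quantile normalization the difference of RPS26 was -0.14 and no longer called (limma, adjusted p = 0.133). Tested probe by probe, the 2 probes of RPS26 differed by -0.047 (limma, adjusted p = 0.646) and -0.37 (limma, adjusted p = 0.00122). RPL22 itself differed by 0.10 (adjusted p = 0.431). RPL12, at the base of the stalk, and RPL21, RPL30 and RPS27L had differences of -0.12, -0.15, -0.14 and -0.098, for which the adjusted p was 0.214 or more. Without SS tumor 3 the difference of RPL30 was -0.022. The 2 probes of RPL12 lay 1.06 apart in this difference.

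The difference between survival groups differed between the orientations in 5 of the 60 members, no larger a share than among all features. Of these 5, 4 were called under each normalization tried. The test was the interaction, that is SS minus LS in Cy5 less the same in Cy3, and limma called 2285 of all features (11.6%), 1932 of them above and 353 below 0 (1560 and 564 after quantile normalization). RPL13A, a 60S protein that can leave the ribosome to silence translation, had a difference of 0.32 in Cy5 and -0.49 in Cy3. Its 8 SS tumors in Cy3 lay between -0.77 and -0.031 and the LS tumors in Cy3 between -0.26 and 0.36. RPS6, the 40S protein phosphorylated by S6 kinase, had 0.38 and -0.47. Its SS tumors covered -1.58 to 1.03, while the LS tumors kept between -0.47 and 0.25. RPL12, RPL23 and RPS27L were the other 3, and RPS27L was the 1 of the 5 below 0, so that 4 members were called above 0 (features: 9.79%) and 1 below (1.79%). RPL23, with 0.39 ± 0.14 (SE, limma, adjusted p = 0.0923), was not called after quantile or scale normalization or with array medians set to 0, where its interaction was 0.36, 0.36 and 0.38. After quantile and after scale normalization 5 members were called, 3 above and 2 below 0. For RPLP1 the interaction was -0.39 ± 0.22 (SE, limma, adjusted p = 0.326), and its difference in Cy3 was not shown to differ from that in Cy5.

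Averaged over the 54 subunit genes, the values of the SS tumors spread over a wider range than those of the LS tumors. In Cy3 the mean of the subunit genes ran from -0.48 to 0.064 over the SS tumors (-0.25 ± 0.21, SD, n = 8) and from -0.24 to -0.095 over the LS tumors (-0.16 ± 0.048, SD, n = 8). In Cy5 it ran from -0.13 to 0.37 in SS (0.095 ± 0.17, SD, n = 8) and from -0.016 to 0.21 in LS (0.067 ± 0.077, SD, n = 8). The group means differed by -0.032 over all tumors, by 0.028 in Cy5 and by -0.092 in Cy3. Over all 60 genes the means differed by -0.029, and by -0.0033 without SS tumor 11 and -0.057 without SS tumor 4. Since the set was chosen with results known, no p is given for its mean or its spread.

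**Figure D4:**
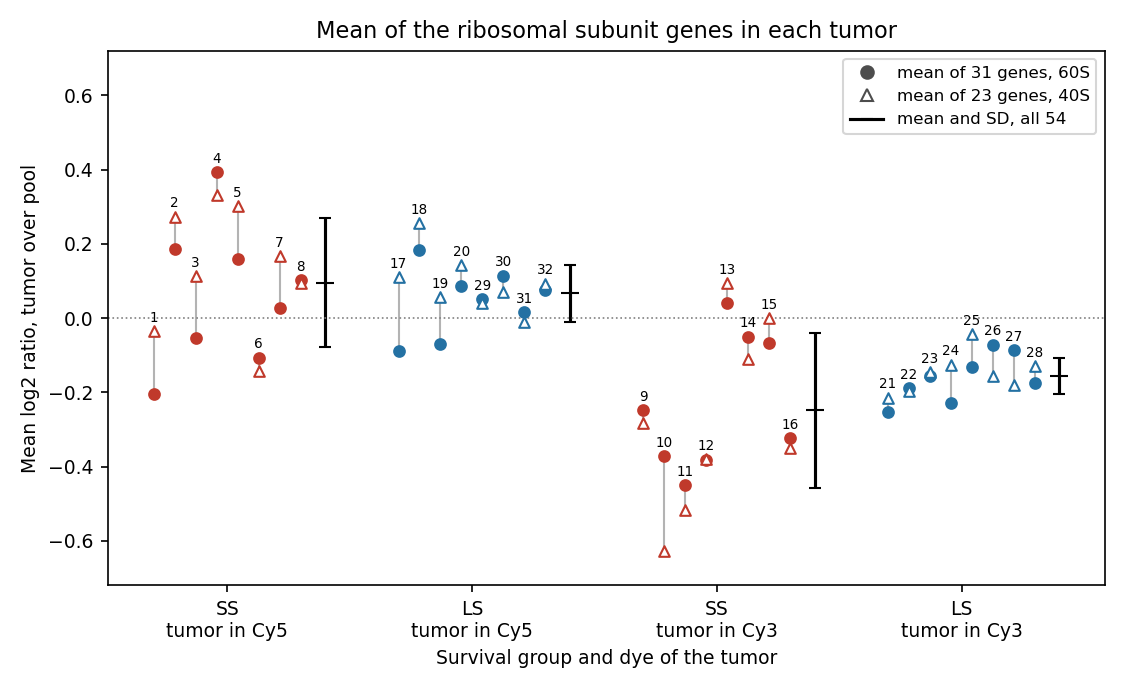
Mean log2 ratio of tumor over pool of the 31 genes of the 60S subunit (filled circles) and of the 23 genes of the 40S subunit (open triangles) in each tumor, by survival group and dye, with tumor numbers. Bars give the mean and SD over 8 tumors of all 54 genes; SS tumors lie farther apart than LS tumors in both orientations, and the 60S and 40S values of a tumor lie close.

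The low end in Cy3 was held by SS tumors 10, 11, 12 and 16, with means of -0.48, -0.48, -0.38 and -0.34. Of the 54 subunit genes, 41 in tumor 10 and 46 in tumor 11 read below the mean of their orientation. In tumor 10 the 40S genes averaged -0.63 and the 60S genes -0.37, the widest distance between the subunits in Cy3. The high end was SS tumor 13 at 0.064, the 1 tumor in Cy3 with a mean above 0. In tumor 13 the difference between orientations over all other features was present at 0.21 times its average size, the lowest of the 32, against 0.82 to 1.04 in the other SS and 0.85 to 1.44 in the LS tumors in Cy3, and the part of this in the high mean was not tested. In Cy5 the highest was SS tumor 4 at 0.37, and the lowest were SS tumors 1 and 6 at -0.13 and -0.12. Tumor 4 also had the highest mean over the 10 of 25 leukocyte markers measured, 1.49, where the SS tumors ranged from -0.70 and the LS tumors from -0.65 to 0.58, and the part of leukocytes in its value was not tested.

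Gene by gene the wider spread held in Cy3. There 49 of the 54 subunit genes had a larger SD over the SS than over the LS tumors (90.7%), against 54.4% of all features, with a median ratio of the SDs of 1.75 and 1.06. With each SS tumor left out in turn the count lay between 47 and 50, and it was 48 without tumor 13. In Cy5 it was 38 of 54 (70.4%), close to the 69.5% of all features. The counts are a description, since the genes of a set share their arrays and are not replicates.

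Across the 32 tumors the subunit genes varied together. After the mean of each dye orientation was removed, a subunit gene correlated with the mean of the other 53 at a median Pearson r of 0.41, from -0.19 to 0.74. Of the 54, 39 had an r above 0.3 (72.2%), as had 9.34% of the features outside the 60, whose median was 0.014. The 2 sets are unlike in their probes. Of the 60 genes, 39 are means of 2 or more probes, while 14482 of all 19728 features are single probes without a symbol. The part of this in the r was not tested. The points share their arrays, their normalization and the pool. The strength of the difference between orientations, which ran from 0.21 to 1.44 over the tumors, was not removed, and its part in the co-variation was not tested. The median r was 0.38 within the 16 tumors in Cy5 and 0.49 within those in Cy3, and 0.50 in SS and 0.24 in LS, a difference that was not tested. In LS alone 23 of the 54 subunit genes had an r above 0.3 (other features: 20.9%), and in SS alone 41 (16.1%). Without SS tumors 10 and 11, the farthest from the median, the median r was 0.37. Without SS tumor 13 the median r was 0.40, with 36 of the 54 above 0.3 (other features: 11.3%).

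**Figure D5:**
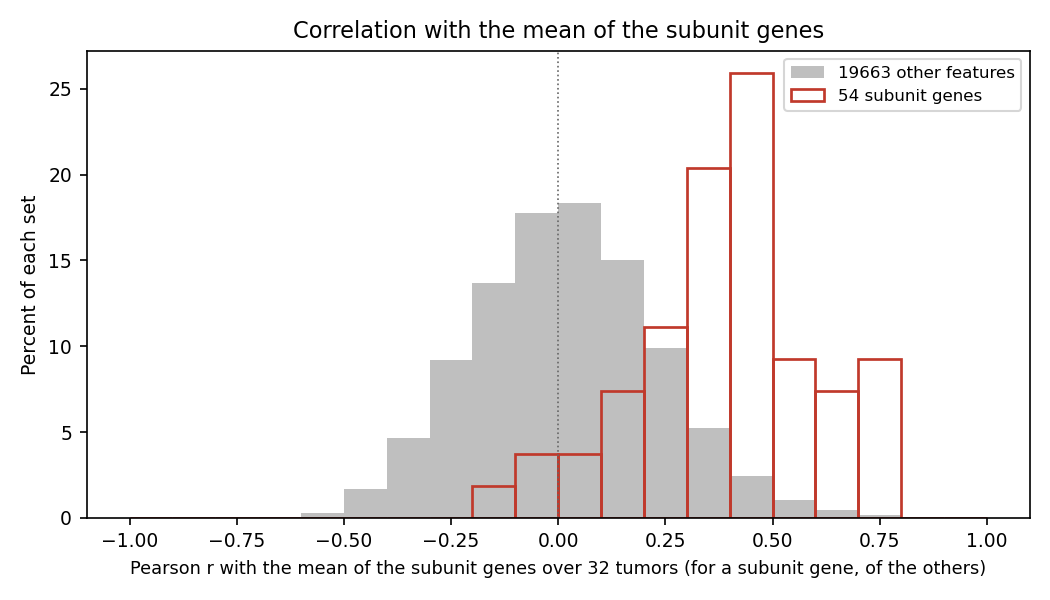
Pearson r over 32 tumors, dye orientation means removed, with the mean of the subunit genes: for the 54 subunit genes with the mean of the others (red outline) and for the features outside the 60 genes (gray), as a percent of each set per bin of 0.1. The features center on 0.014 and the subunit genes on 0.41, with a tail of subunit genes down to -0.19.

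The subunits moved with each other. The mean of the 31 60S genes and that of the 23 40S genes correlated at r = 0.84 and Spearman's rho = 0.85 over 32 tumors, at 0.80 within Cy5 and 0.89 within Cy3. The highest single genes were RPS27 (r = 0.74), RPL28 (0.73), RPL13 (0.73), RPLP2 (0.71) and RPL35 (0.70). RPS19 stood at 0.67 and RPS6 at 0.53. Of the other stalk proteins, RPLP0 stood at 0.36 and RPLP1 at 0.25. At the low end were RPS28 (-0.19), RPL9 (-0.06) and RPL10 (-0.042), the last a protein that joins the 60S subunit late in its maturation. The 2 probes of RPS28 correlated with each other at 0.16 and the 3 of RPL10 at a mean of 0.16, while RPL9 had 1 probe. How far probe disagreement lowered these r was not tested. Outside the subunits, RPL18P (0.61) and RPL26L1 (0.58) followed the set, and RPL36AL (0.20), RPS19BP1 (0.048) and RPL22L1 (-0.004) less so. RPS27L, a p53-induced paralog of RPS27, was at -0.30, while RPS27 had the highest r of the 60.

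The 5 genes outside the 60 that were most like the mean of the 60 were POLR2H, a subunit shared by the RNA polymerases (r = 0.83), CYP1A2, a cytochrome P450 (0.82), MLEC, a lectin of the endoplasmic reticulum (0.78), ABCD3, a transporter of the peroxisome (0.74), and NDUFV1, a subunit of complex I (0.73). NDUFV1 was read by 3 probes and the others by 1, and the r is over 32 tumors with the orientation means removed. They were picked as the highest of all named genes, and their r without SS tumors 10 and 11 ran from 0.64 to 0.81.

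The other parts of the translation machinery followed the ribosomal proteins less closely. The median r with the subunit mean was 0.16 for 8 elongation factors, 0.13 for 26 initiation factors, 0.23 for 20 other genes whose messengers carry the pyrimidine tract (which include factors of the first 2 lists), 0.12 for 44 ribosome biogenesis genes and 0.12 for 50 mitochondrial ribosomal proteins. EEF1G, a subunit of the elongation factor that delivers aminoacyl tRNA, was at 0.56, and PABPC1, the poly(A) binding protein, at 0.34. For 16 genes from mTOR to the S6 kinases the median r was -0.019, and for 6 other reference genes of quantitative PCR -0.036.

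Between the survival groups limma called 0 genes of each of these lists over all arrays. At an unadjusted p under 0.05 it had 8 of 50 mitochondrial ribosomal proteins higher in SS and 0 lower, 7 of 44 biogenesis genes higher and 0 lower, 4 of 26 initiation factors higher and 0 lower, 3 of 20 other pyrimidine tract genes higher and 0 lower, 1 of 16 mTOR genes higher and 0 lower, 0 of 8 elongation factors, and 1 of 6 reference genes higher, against 3.34% of all features higher and 3.56% lower. The median differences were 0.10, 0.052, 0.071, 0.059, 0.039, -0.061 and 0.12, beside -0.023 for the ribosomal proteins. Whether a list differed from the ribosomal proteins was not tested.

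RSL1D1, a nucleolar protein of ribosome biogenesis, differed by 0.68 ± 0.16 (SE, limma, adjusted p = 0.434, and 0.0693 with the orientation block). NCL, nucleolin, differed by 0.30 ± 0.096 and UTP3, of the processing of 18S RNA, by 0.36 ± 0.11. MRPS31, of the small mitochondrial subunit, differed by 0.50 ± 0.13. The study lists both RSL1D1 and MRPS31 as higher in short survivors, MRPS31 also by quantitative PCR. MRPL19 and MRPL30, of the large mitochondrial subunit, differed by 0.36 ± 0.13 and 0.20 ± 0.077, and RPS6KB1, the S6 kinase, by 0.18 ± 0.079. IPO7, an importin that carries ribosomal proteins into the nucleus, differed by 0.38 ± 0.13, and EIF2S2, of the factor that brings the initiator tRNA, by 0.35 ± 0.15. EEF1G had the lowest difference of the elongation factors, -0.28 ± 0.16, and GUSB the highest of the reference genes, 0.39 ± 0.15. With the block limma called 1 biogenesis gene (RSL1D1) and 2 mitochondrial ribosomal proteins (MRPS31 and MRPL19), all higher in SS, against 0.142% of all features.

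The probes of a ribosomal protein gene mostly read alike. Over the 39 genes with more than 1 probe the mean correlation between probes of a gene had a median of 0.72, and in 34 of the 39 it was above 0.3 (87.2%). Over all 1619 genes with more than 1 probe the median was 0.37 and the share 55.4%. The 3 probes of RPLP2 and the 2 of RPL13 stood highest, at 0.88 and 0.88. The lowest was RPL31 at -0.22, where 1 probe ran from -8.00 in LS tumor 17 to 2.02 in LS tumor 18 and the other from -1.05 to 0.82.

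Single extreme values stood beside the widest gaps between probes of a gene in SS minus LS. The 4 probes of RPL30 ran from -0.39 to 0.22, and the lowest of them had a value of -6.56 in SS tumor 3. The 7 probes of RPL17, a protein at the exit of the peptide tunnel, ran from -0.13 to 0.38, and the highest of them covered -3.17 in SS tumor 12 to 4.13 in SS tumor 2. The 3 probes of RPL35, at the same exit, ran from -0.24 to 0.26, the last with 6.12 in SS tumor 4. Averaged over the probes, the 3 genes differed between SS and LS by -0.014, 0.0094 and -0.0019.

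Members differed in how much they varied. After removal of the orientation means the SD over 32 tumors had a median of 0.31 for the subunit genes and 0.27 for all features. The largest were RPL31 (1.02), RPL22L1 (0.64) and RPS24 (0.55), a 40S protein mutated in some cases of Diamond-Blackfan anemia. The SD of RPL31 came with that of the 1 probe that reached -8.00, which was 2.08, while its other probe had 0.42. RPL22L1 ranged from -1.71 to 1.96 with a median of -0.12 in SS and from -1.35 to 1.05 with a median of -0.037 in LS, and RPS24 from -1.73 to 1.08 with a median of 0.11 and from -0.93 to 0.58 with a median of -0.12. The smallest were RPL7A (0.19), RPL10 (0.19) and RPL26L1 (0.19). RPL7A lay between -0.49 and 0.33 in SS and between -0.23 and 0.23 in LS, and RPS19 stood at 0.26.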

How the data were processed

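The authors labeled amplified RNA of each tumor, hybridized it with the pool, marked defective spots, normalized by print-tip Lowess and deposited log ratios (read here as log2), with the data of dye-swapped arrays switched to tumor over pool. The base of the logarithm is not given in the sources used here. No ratio was normalized again. Of 22176 probes, 7694 had a symbol in the platform annotation and 14482 had none, and 5 values were missing, none of a ribosomal protein gene. Of the 60 genes, 59 matched a gene identifier of the current RefSeq annotation (RPL10 did not), which changed 0 symbols. Probes of a symbol were averaged to give 19728 features. Signal of the channels was not used here, and the number of arrays limits the precision.

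SS and LS came from the sample labels. Moderated tests (limma 3.58.1, R 4.3.3) were two-sided, p-values were adjusted by Benjamini-Hochberg over the 19728 features, and the threshold was 0.10. The model was fitted for SS against LS without covariate as in the study, for Cy5 against Cy3 with the survival group, and for their interaction. SAM was rebuilt with 100 permutations and 10 neighbors in Python 3.11.15. Both were tested on simulated data. Alternatives were the orientation as a block, each orientation or group alone, quantile and scale normalization, array medians set to 0, the median of the probes, every probe, array weights, no survival group in the dye model, and each array left out. The ranges of spread and co-variation under other choices of tumors were added after seeing the data. The members, gene lists and tests were chosen with earlier results of these data known. The genes named are RPS19, the 6 members with the smallest p in each direction for survival and for dye, the 3 with the largest and the 3 with the smallest SD, the 3 with the widest gap between probes, RPS19BP1, up to 3 genes with the smallest p of each other list and the 5 outside genes most like the mean of the 60. The other members named, among them the 3 called in Cy3, the 5 with an interaction and those at either end of the co-variation, were chosen after their values were seen.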

Additional observations from a re-analysis of the deposited data

Results flagged for a closer look

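In 5 of the 60 ribosomal protein genes the difference between SS and LS differed between the orientations of the dyes by limma's interaction test. That share was no larger than the 11.6% of all features. The interaction, SS minus LS in Cy5 less SS minus LS in Cy3, was 0.81 ± 0.18 (SE, limma, adjusted p = 0.00342) for RPL13A and 0.85 ± 0.25 (SE, limma, adjusted p = 0.0329) for RPS6. It was 0.46 ± 0.14 (SE, limma, adjusted p = 0.0388) for RPL12, 0.39 ± 0.14 (SE, limma, adjusted p = 0.0923) for RPL23 and -0.49 ± 0.15 (SE, limma, adjusted p = 0.0373) for RPS27L. The difference within Cy5 and within Cy3 was 0.19 and -0.27 for RPL12, 0.26 and -0.13 for RPL23, and -0.32 and 0.17 for RPS27L. RPL23 was no longer called after quantile or scale normalization or with array medians set to 0, and the other 4 were. In 4 of the 5 genes SS was higher than LS in Cy5 and lower in Cy3, and in RPS27L the reverse. Each orientation holds different dogs, so that dye and dogs cannot be told apart in these values.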

How the results depend on the processing

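Over all 32 arrays 0 members were called between SS and LS under each normalization, probe rule, weighting and left-out array tried, and by SAM, while the tumors in Cy3 alone gave 3. Members called between the orientations were 39, and 38 to 40 with an array left out, where the main fit called 6281 features higher and 6659 lower. After quantile normalization 43 members were called (features: 7699 higher, 5765 lower), and with every probe tested 50 had a called probe. In SS alone 28 members were called (features: 4423 higher, 5052 lower) and in LS alone 33 (5723 and 6463). Members with an interaction were 5, but 8 with array weights, and 4 to 7 with an array left out, the last without SS tumor 2. No paired analysis was possible because the tumors came from 32 different dogs. The wide intervals of RPL31 and RPL22L1 and the few markers limit what could be seen; where a value moved, the cause was not tested.

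Of the 16 members named for survival, 6 changed sign among the tumors in Cy3 (RPL6 -0.013, RPL9 -0.16, RPS23 -0.028, RPL23 -0.13, RPL30 0.25, RPL17 -0.084) and 3 among those in Cy5 (RPS19BP1 -0.040, RPL35 0.16, RPS19 0.054). With the median of the probes RPL30 was 0.11 and RPL17 -0.059, with scale normalization RPL30 0.015 and RPL17 -0.0063, and with quantile normalization RPL30 0.043. With an array left out RPL17 ran from -0.057 to 0.056, RPL30 from -0.12 to 0.10 and RPL35 from -0.15 to 0.061. Between the dyes, RPL12 was 0.11 in SS alone, and RPS27L 0.15 and RPL30 0.13 in LS alone. The lower calls of RPL22L1 and RPS26 in Cy5 were lost in the 16 SS tumors alone (RPL22L1 -0.62, limma adjusted p = 0.176; RPS26 -0.21, limma adjusted p = 0.214), with differences of -0.84 and -0.21 over all 32. The interaction of RPL23, 0.39 as reported, was lost under quantile normalization (0.36, limma adjusted p = 0.211), scale normalization (0.36, limma adjusted p = 0.127) and medians set to 0 (0.38, limma adjusted p = 0.103).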
